A study of Homo sapiens with 5 samples.

Results

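The nuclear genes that encode the respiratory chain were examined in RPE1 cells after treatment with doxorubicin. Members were chosen by gene symbol alone, without use of any measured value: symbols made of NDUF with A, B, C, S or V and a number, SDH with A to D, UQCR with any ending, CYC1, COX with 4 to 8 and any ending, and ATP5 with any ending. This gave 88 of the 26485 genes in the count table, namely 37 of complex I, 4 of complex II, 11 of complex III, 17 of complex IV and 19 of complex V. Among them, UQCRBP1, UQCRHL, ATP5S, ATP5SL, ATP5EP2 and ATP5L2 match by symbol but are not counted as subunits. RPE1 is an established human line of retinal pigment epithelial origin, and the cells are labelled WT. Doxorubicin is an anthracycline that intercalates into DNA and traps topoisomerase II. RNA-seq was done on poly-A RNA, with 2 libraries of cells treated with DMSO, the vehicle, 2 treated with 0.2 μM doxorubicin and 1 treated with 0.34 μM doxorubicin, all for 18 h. The 3 doxorubicin libraries formed 1 group, and the question was how expression changed against DMSO.

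The respiratory chain sits in the inner mitochondrial membrane. Complex I oxidizes NADH and complex II oxidizes succinate, complex III passes the electrons to cytochrome c, complex IV hands them to oxygen, and complex V uses the resulting proton gradient to make ATP. Most subunits are encoded in the nucleus, and the factors NRF1, GABP (an ETS family factor) and YY1 are known to bind the promoters of many of these genes. The subunits encoded by mitochondrial DNA were not analysed here.

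No member passed the threshold in either direction in edgeR's quasi-likelihood test (0 of 80 tested, Benjamini-Hochberg adjusted p of 0.01), while 4.02% of all 14187 genes tested did. The members were mostly somewhat higher after doxorubicin: 62 were higher and 18 lower, so that 77.5% were higher against 51.1% of all genes. Their median log2 fold change was 0.25 (quartiles 0.01 and 0.42), against 0.01 over all genes (from -0.35 to 0.41). Complex IV stood at a median of 0.42 with 11 of 11 genes higher, and complex V at 0.18 with 12 of 17 higher. The smallest adjusted p-values were those of NDUFA4, NDUFC1 and NDUFA13, which passed the same threshold with DESeq2 only, where 14.3% of the genes edgeR tested did. At the looser adjusted p of 0.05 in edgeR these 3 genes passed, with 13.6% of all genes passing. In each case the 3 of 80 members are a smaller share than that of all genes.

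The depth behind these values was high. The libraries held between 23773061 and 36725345 counts on genes, and the members took between 115279 and 196226 of them. Counts of markers of the retinal pigment epithelium were low for the visual cycle and pigment genes RPE65 (3 to 8 counts), RLBP1 (0 to 3) and TYR (0 to 5), while the transcription factors MITF (29.1 to 56.7 CPM, counts scaled to a common library size) and OTX2 (23.5 to 29.4 CPM) were present in every library. TYRP1 (1 to 7 counts) and SERPINF1 (4 to 29) were also low, and LRAT had 6 and 25 counts in the controls and 1, 4 and 2 in the treated libraries. Others of the list were higher after treatment at low counts, with 7 and 5 against 22, 32 and 46 for PMEL (adjusted p 0.0264 by edgeR) and 26 and 14 against 86, 30 and 142 for BEST1 (0.0823). The epithelial keratin KRT8 was 1.83-fold higher (adjusted p 0.0133 by edgeR), while the epithelial markers CDH1 and EPCAM had at most 4 counts. The mesenchymal markers were highly expressed in every library, with VIM at 4711 to 5805 CPM and CDH2 at 306 to 523 CPM. FN1 was lower in both second replicates, at 19190 and 9080 CPM in DMSO, 19660 and 11510 CPM at 0.2 μM and 19320 CPM at 0.34 μM. Of the markers of other cell types, CD3E was at 0, and CDH5 of the endothelium had 56 and 69 counts in both second replicates against 2 to 5 in the other libraries. The blood marker PTPRC had 5 and 7 counts in the controls and 25, 53 and 72 in the treated libraries, at most 2.20 CPM. The part of these markers in the results below was not tested. CPM values are scaled to each library, so a change in the RNA content per cell, or in the number of cells, cannot be seen in them.

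Promoter sequences are shown for the 3 genes that passed with DESeq2, for NDUFA6 and ATP5J with the lowest log2 fold changes of the family, and for COX5B as an example of complex IV. Each is the 130 bases before the first start that the RefSeq table (GRCh38.p14) lists for the gene, written in the gene's own direction. That start is the outer end of the annotated gene for 5 of them, while for ATP5J it lies 599 bases inside the gene. Capitals mark a match to the letters GCGCATGCG (an NRF1 motif), CCGGAAGT (an ETS motif, bound by GABP) or AAGATGGCG (a YY1 motif).
NDUFA4, chr7:10940154-10940283, minus strand: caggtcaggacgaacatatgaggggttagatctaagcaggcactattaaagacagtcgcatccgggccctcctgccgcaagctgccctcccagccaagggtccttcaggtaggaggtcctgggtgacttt
NDUFC1, chr4:139302552-139302681, minus strand: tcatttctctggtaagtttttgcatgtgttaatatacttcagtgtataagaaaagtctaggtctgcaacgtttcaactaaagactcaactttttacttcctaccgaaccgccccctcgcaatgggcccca
NDUFA13, chr19:19516095-19516224, plus strand: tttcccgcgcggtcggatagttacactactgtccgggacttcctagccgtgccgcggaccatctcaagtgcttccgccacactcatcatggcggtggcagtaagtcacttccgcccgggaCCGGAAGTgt
NDUFA6, chr22:42090773-42090902, minus strand: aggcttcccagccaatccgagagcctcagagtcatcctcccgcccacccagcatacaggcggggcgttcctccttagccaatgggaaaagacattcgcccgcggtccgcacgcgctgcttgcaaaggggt
COX5B, chr2:97645932-97646061, plus strand: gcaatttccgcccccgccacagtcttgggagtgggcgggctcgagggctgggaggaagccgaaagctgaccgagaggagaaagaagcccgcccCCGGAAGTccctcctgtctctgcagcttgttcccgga
ATP5J, chr21:25735055-25735184, minus strand: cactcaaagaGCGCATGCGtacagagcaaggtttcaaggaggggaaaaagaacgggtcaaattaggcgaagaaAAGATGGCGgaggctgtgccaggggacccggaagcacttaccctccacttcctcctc
NDUFA13 and COX5B hold an ETS match, ATP5J holds an NRF1 and a YY1 match, and the stretches of NDUFA4, NDUFC1 and NDUFA6 hold none. NDUFA6 has a YY1 match from base 26 after its start, beyond the stretch shown.

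Motifs were searched on both strands in windows from 250 bases before to 50 after the start, for the 64 tested members that had one. In 5 of these, ATP5J included, the start used lay inside the annotated gene. An NRF1 match lay in 10 of these windows (15.6%), against 3.75% of 11054 windows of all genes tested and 2.1% of 27305 windows in the whole table. ETS matches were found in 9 members (14.1%, against 8.56% and 4.44%) and YY1 matches in 8 (12.5%, against 3.88% and 1.85%). At least 1 of the 3 motifs was in 24 members (37.5%), against 15.1% of the genes tested. The median log2 fold change was 0.22 for the members with any match and 0.27 for the members without one. By motif, it was 0.12 with and 0.28 without an NRF1 match, 0.45 with and 0.26 without an ETS match, and 0.23 with and 0.26 without a YY1 match, in sets of 8 to 10 members with a match. A match is a stretch of letters and does not show that a factor binds there.

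**Figure D1:**
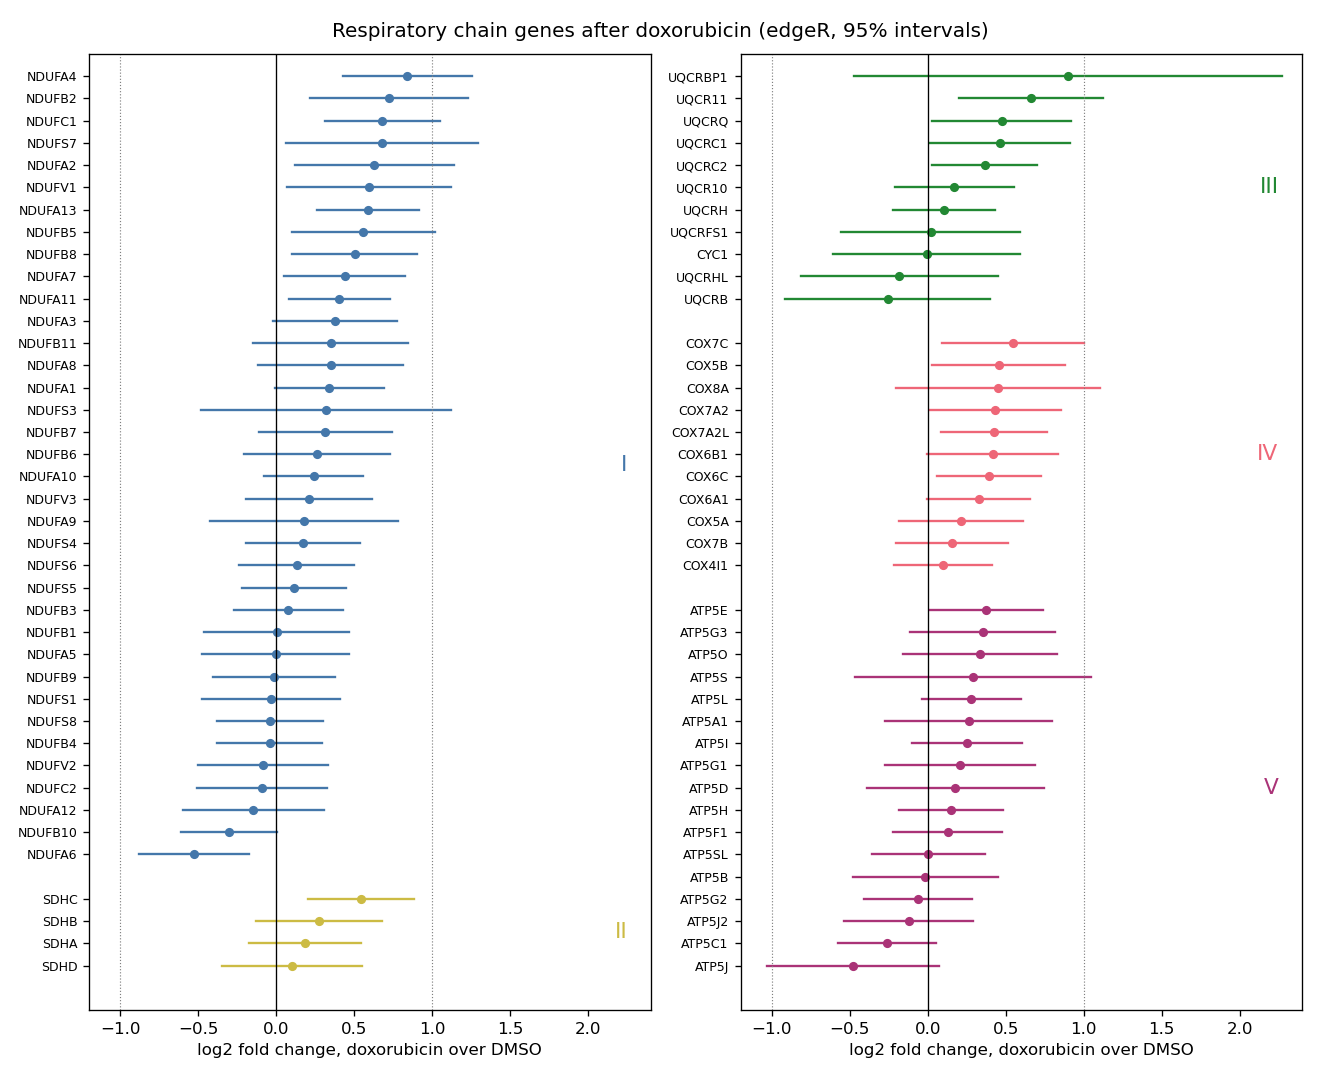
Log2 fold change of 79 of the 80 tested members, doxorubicin over DMSO, on the horizontal axis, with 1 gene per line, ordered by complex (roman numerals) and value. Points are edgeR estimates from 3 against 2 libraries, lines are 95% intervals and dotted lines mark a 2-fold change. Most points lie to the right of 0, and all 11 of complex IV do.

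The intervals limit how large a change could have been missed. The 95% interval of the fold change stayed within 2-fold in either direction for 66 of the 80 members (82.5%), against 49.4% of all genes. The median standard error of the log2 fold change was 0.17 for members and 0.23 for all genes. At an unadjusted p under 0.05 by edgeR, 22 members (27.5%) were higher and 1 was lower. Of the 14187 genes tested, 2159 (15.2%) were higher and 2209 lower at that p. In both directions together 23 of 80 members passed, where 30.8% of all genes did. All 3 doxorubicin libraries lay above both DMSO libraries for 38 members (47.5%), against 24.3% of all genes. All 3 lay below both for NDUFA6, NDUFB10 and ATP5C1 (3.75%), against 23.4% of all genes. For the remaining 39 the groups overlapped. Over the 7744 genes at or above the lowest level of a tested subunit, whatever their function, the median log2 fold change was -0.02.

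The DMSO libraries did not match each other for these genes, which bears on every value here. The members took 0.432% of the counts in the first DMSO library and 0.535% in the second, against 0.525%, 0.557% and 0.534% in the doxorubicin libraries. DMSO replicate 2 was above replicate 1 for 59 of 80 members, with a median log2 difference of 0.19, against 0.01 over all genes. In 55 members (68.8%) DMSO replicate 1 was the lowest of all 5 libraries, against 26.0% of all genes. The difference between treatments was larger than the gap between the DMSO libraries for 38 of 80 members (47.5%, all genes 51.3%). Without DMSO replicate 1 the members' median fell to 0.14 (all genes 0.04) with 57 of 80 higher. Without DMSO replicate 2 it was 0.36 (all genes 0.01) with 68 higher. The pair of 0.2 μM libraries lay closer, with a median absolute gap of 0.13 against 0.26 for the DMSO pair.

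**Figure D2:**
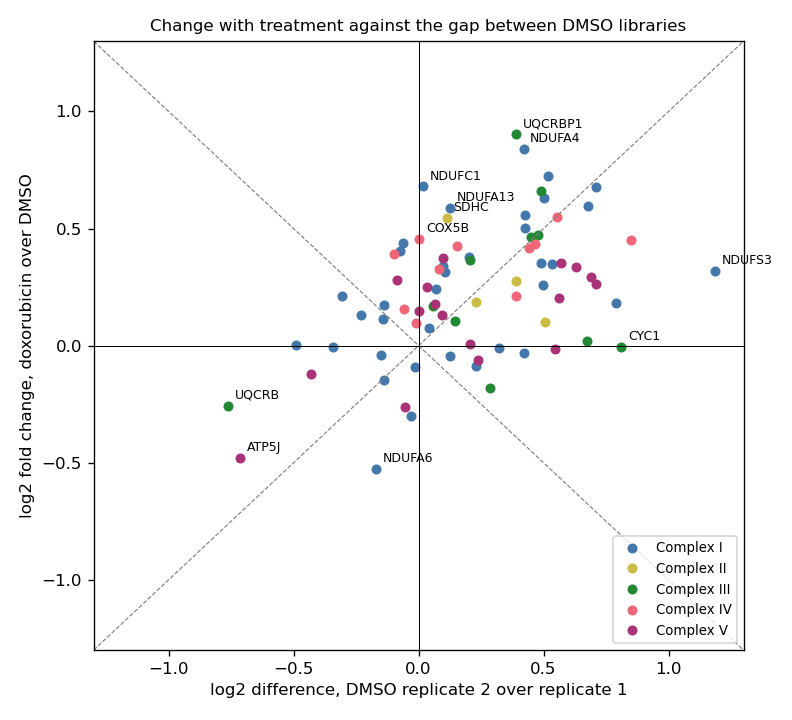
Each point is 1 of 79 of the 80 tested members, coloured by complex. The horizontal axis is the log2 difference of DMSO replicate 2 over replicate 1, the vertical axis is the log2 fold change of doxorubicin over DMSO, and the dashed lines mark where both are equal in size. NDUFC1, NDUFA13, SDHC and COX5B lie above the lines near a DMSO gap of 0, while NDUFS3, CYC1, ATP5J and UQCRB lie at DMSO gaps of 0.71 or more in size that exceed their change.

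Complex I takes electrons from NADH through a flavin and a chain of iron-sulfur clusters. Of its 37 genes 27 were higher and 10 lower, and the median log2 fold change was 0.24. The groups did not overlap for 17 genes on the higher side (45.9%, all genes 24.3%) and 2 on the lower side (5.41%, all genes 23.4%). In the test 12 had an unadjusted p under 0.05 in either direction (32.4%, all genes 30.8%). Of these 11 were higher, which is 29.7% of the complex, where 15.2% of all genes were higher at that p.

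NDUFA4 carries a complex I name, but its product is known as a component of complex IV. Its level was 49.7 and 66.5 CPM in the DMSO libraries, 103 and 98.3 CPM at 0.2 μM and 111 CPM at 0.34 μM. All treated libraries lay above both controls. This is a log2 fold change of 0.84 ± 0.17 (SE), or a 1.79-fold higher level, with an adjusted p of 0.0252 in edgeR's quasi-likelihood test and of 0.000921 in DESeq2. Across all alternatives it was between 0.64 and 1.05.

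NDUFC1, a small accessory subunit of complex I, was at 17.4 and 17.6 CPM in DMSO and at 28.9, 26.4 and 28.6 CPM in doxorubicin, the last value being the 0.34 μM library. NDUFA13, an accessory subunit also known as GRIM-19, was at 41.1 and 44.9 CPM in DMSO and at 65.6, 63.9 and 64.5 CPM in doxorubicin. Both were selected after their values were seen, and in both the gap between groups was several times the spread within them. The log2 fold changes were 0.68 ± 0.16 (adjusted p 0.0337 by edgeR, 0.00292 by DESeq2) and 0.59 ± 0.14 (0.0376 and 0.00472). Leaving out either DMSO library moved them little, and all alternatives lay between 0.66 and 0.72 for NDUFC1 and between 0.52 and 0.64 for NDUFA13.

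NDUFA6, an accessory subunit of the LYR protein family, had the lowest log2 fold change of complex I and of all members. It was at 39.3 and 34.9 CPM in DMSO and at 25.7, 25.3 and 26.3 CPM in doxorubicin. The treated libraries lay close together and below both controls. It differed by -0.53 ± 0.15 on the log2 scale (adjusted p 0.0625 by edgeR).

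Core subunits of complex I had estimates on both sides of 0. NDUFV1, which binds the flavin and NADH, was at 41.2 and 65.9 CPM in DMSO and at 84.8, 74.6 and 83.4 CPM in doxorubicin, with a log2 fold change of 0.60 ± 0.22 (adjusted p 0.122 by edgeR). That value came to 0.29 when DMSO replicate 1 was left out and to 0.96 when replicate 2 was. NDUFS1, the largest iron-sulfur subunit, was at 84.3 and 113 CPM in DMSO and at 97.1, 108 and 84.4 CPM in doxorubicin, and its groups overlapped (log2 fold change -0.03 ± 0.19). NDUFS3, another core subunit selected after its values were seen, had the widest DMSO gap of the tested members. It was at 16.2 and 36.9 CPM in DMSO and at 32.3, 30.0 and 37.0 CPM in doxorubicin. Its log2 fold change was 0.32, and -0.16 without DMSO replicate 1.

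Complex II, succinate dehydrogenase, is also an enzyme of the citrate cycle. All 4 of its genes were higher, with a median log2 fold change of 0.23. Leaving out DMSO replicate 1 gave 0.075, and leaving out replicate 2 gave 0.41. SDHC, a membrane anchor, was at 67.1 and 72.5 CPM in DMSO and at 97.4, 111 and 97.4 CPM in doxorubicin. Its groups were well apart, with a log2 fold change of 0.55 ± 0.14 and an adjusted p of 0.0506 by edgeR. The flavoprotein SDHA was at 117 and 137 CPM in DMSO and at 136, 140.4 and 156 CPM in doxorubicin (0.19 ± 0.15). The iron-sulfur protein SDHB was at 37.7 and 49.5 CPM in DMSO and at 50.4, 54.7 and 53.2 CPM in doxorubicin (0.27 ± 0.17). Without DMSO replicate 1 the values of SDHA and SDHB were 0.07 and 0.08. SDHD, the other anchor, overlapped, at 35.1 and 49.8 CPM in DMSO and at 45.4, 47.2 and 44.1 CPM in doxorubicin (0.10 ± 0.19).

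Complex III is the cytochrome bc1 complex. Its 11 symbols gave 8 higher and 3 lower values and a median log2 fold change of 0.17. They include UQCRHL and the pseudogene UQCRBP1, which are not counted as subunits, and the median over subunits only was also 0.17. The groups did not overlap for 5 (45.5%), all higher, where 24.3% of all genes lay higher in this way. UQCR11, a small subunit selected after its values were seen, was at 27.2 and 38.2 CPM in DMSO and at 53.9, 47.2 and 54.0 CPM in doxorubicin (0.66 ± 0.20, adjusted p 0.0688 by edgeR, and 0.43 without DMSO replicate 1). UQCRC1, a core protein, was at 107 and 146 CPM in DMSO and at 182, 155 and 188 CPM in doxorubicin (0.46 ± 0.19, and 0.25 without DMSO replicate 1). The redox subunits had estimates near 0 but wide intervals, from -0.55 to 0.59 for UQCRFS1 and from -0.61 to 0.59 for CYC1. Both intervals include the value of UQCRC1, and a difference between the subunits was not tested. The Rieske iron-sulfur protein UQCRFS1 had 48.6 and 77.6 CPM in DMSO and 57.2, 76.1 and 58.7 CPM in doxorubicin (0.02 ± 0.24). CYC1, cytochrome c1, had 36.5 and 64.1 CPM in DMSO and 53.8, 44.6 and 51.8 CPM in doxorubicin (-0.01 ± 0.25). For both of them the treated libraries lay between the controls. UQCRB, which takes part in binding ubiquinone, had the lowest log2 fold change of the complex (-0.26 ± 0.28), at 217 and 128 CPM in DMSO and at 119, 180.5 and 134 CPM in doxorubicin. Its treated libraries overlapped the controls, and the value was 0.16 without DMSO replicate 1. The highest value of the complex, 0.90 ± 0.57, belonged to UQCRBP1, a pseudogene of UQCRB that had 8 and 11 counts in the controls and 11, 13 and 39 in the treated libraries.

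Complex IV, cytochrome c oxidase, had the highest median of the 5 complexes, and all 11 of its tested genes were higher. The treated libraries lay above both controls for 9 of them (81.8%, all genes 24.3%), and 5 had an unadjusted p under 0.05 (45.5%, all genes 30.8%). These 5 were all higher, where 15.2% of all genes were higher at that p. The median of 0.42 was 0.21 without DMSO replicate 1. COX7C, a small structural subunit, was at 47.7 and 69.9 CPM in DMSO and at 83.9, 89.0 and 85.0 CPM in doxorubicin, with a log2 fold change of 0.55 ± 0.19 (adjusted p 0.106 by edgeR). It came to 0.29 when DMSO replicate 1 was left out and to 0.83 when replicate 2 was. COX5B, a subunit that binds zinc, was at 33.3 and 33.4 CPM in DMSO and at 47.3, 38.2 and 51.7 CPM in doxorubicin (0.46 ± 0.18). It was selected after its values were seen, and it is, with NDUFA13, a gene with an ETS match shown above. COX5A was at 38.0 and 49.9 CPM in DMSO and at 50.4, 51.2 and 51.1 CPM in doxorubicin (0.21 ± 0.17, and 0.02 without DMSO replicate 1). COX4I1, the isoform of subunit 4 found in most tissues, was the nearest to no difference, at 134 and 133 CPM in DMSO and at 142.5, 137 and 149 CPM in doxorubicin. All treated libraries lay above both controls, but by little (0.10 ± 0.13, interval from -0.22 to 0.41).

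Several complex IV subunits exist as isoforms that are known for particular tissues, and the tissue-restricted forms were at or near 0 counts in every library. COX4I2 (lung), COX6A2 (heart and skeletal muscle) and COX7B2 had 0 counts in all 5 libraries, where 3 counts, the most that a count of 0 allows, come to between 0.0827 and 0.125 CPM. COX8C had 2 counts in the 0.34 μM library and 0 in the others. COX7A1, the heart and muscle form, had 3 and 4 counts in the controls and 7, 3 and 7 in the treated libraries, and COX6B2, the testis form, had 2 and 3 in the controls and 5, 1 and 1 in the treated libraries. The common forms COX6A1 (0.33 ± 0.14), COX6B1 (0.42 ± 0.18), COX7A2 (0.43 ± 0.18), COX7A2L (0.43 ± 0.14), COX7B (0.16 ± 0.15) and COX8A (0.45 ± 0.28) were all higher in the fit without passing the threshold. The groups of COX7B and COX8A overlapped. COX8A was at 31.8 and 57.4 CPM in DMSO and at 64.9, 50.6 and 67.4 CPM in doxorubicin. Its log2 fold change came to 0.08 when DMSO replicate 1 was left out and to 0.92 when replicate 2 was, and for COX6B1 (0.20 and 0.64) and COX7A2 (0.21 and 0.67) the same libraries moved the value. COX7A2L, which is known to take part in joining complexes into supercomplexes, was at 57.4 and 63.9 CPM in DMSO and at 77.2, 87.1 and 80.2 CPM in doxorubicin.

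Complex V, the ATP synthase, had a median log2 fold change of 0.18 over 17 tested genes, and 0.05 without DMSO replicate 1. The 17 include ATP5S and ATP5SL (now DMAC2L and DMAC2), which are not counted as ATP synthase subunits. Over subunits only, the median was also 0.18. Only 1 of the 17 (5.88%) had an unadjusted p under 0.05, where 30.8% of all genes did. The groups overlapped for 11 (64.7%, all genes 52.3%). The gene with an unadjusted p under 0.05 was ATP5E, the epsilon subunit of the central stalk. It was at 24.2 and 25.9 CPM in DMSO and at 30.6, 33.6 and 33.3 CPM in doxorubicin (0.38 ± 0.15, adjusted p 0.149 by edgeR). ATP5A1 and ATP5B encode the alpha and beta subunits of the catalytic part of the enzyme. ATP5A1 was at 230.0 and 376 CPM in DMSO and at 367.5, 371 and 352 CPM in doxorubicin, so that DMSO replicate 2 lay above all treated libraries (0.26 ± 0.23, and -0.06 without DMSO replicate 1). ATP5B was at 345 and 503 CPM in DMSO and at 441, 408 and 410.3 CPM in doxorubicin, between the controls (-0.01 ± 0.20). The 3 genes for the c subunit of the membrane rotor encode the same mature protein. Their log2 fold changes were 0.20 ± 0.20 for ATP5G1, -0.06 ± 0.14 for ATP5G2 and 0.35 ± 0.19 for ATP5G3. Without DMSO replicate 1 these were -0.06, -0.18 and 0.09, and without DMSO replicate 2 they were 0.50, 0.05 and 0.65. ATP5J, coupling factor 6 of the peripheral stalk, had the lowest value (-0.48 ± 0.23), at 90.1 and 54.9 CPM in DMSO and at 46.5, 58.4 and 51.2 CPM in doxorubicin. There the high level was that of DMSO replicate 1 alone, and the second control lay within the treated range. The value came to -0.09 when DMSO replicate 1 was left out and to -0.81 when replicate 2 was.

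**Figure D3:**
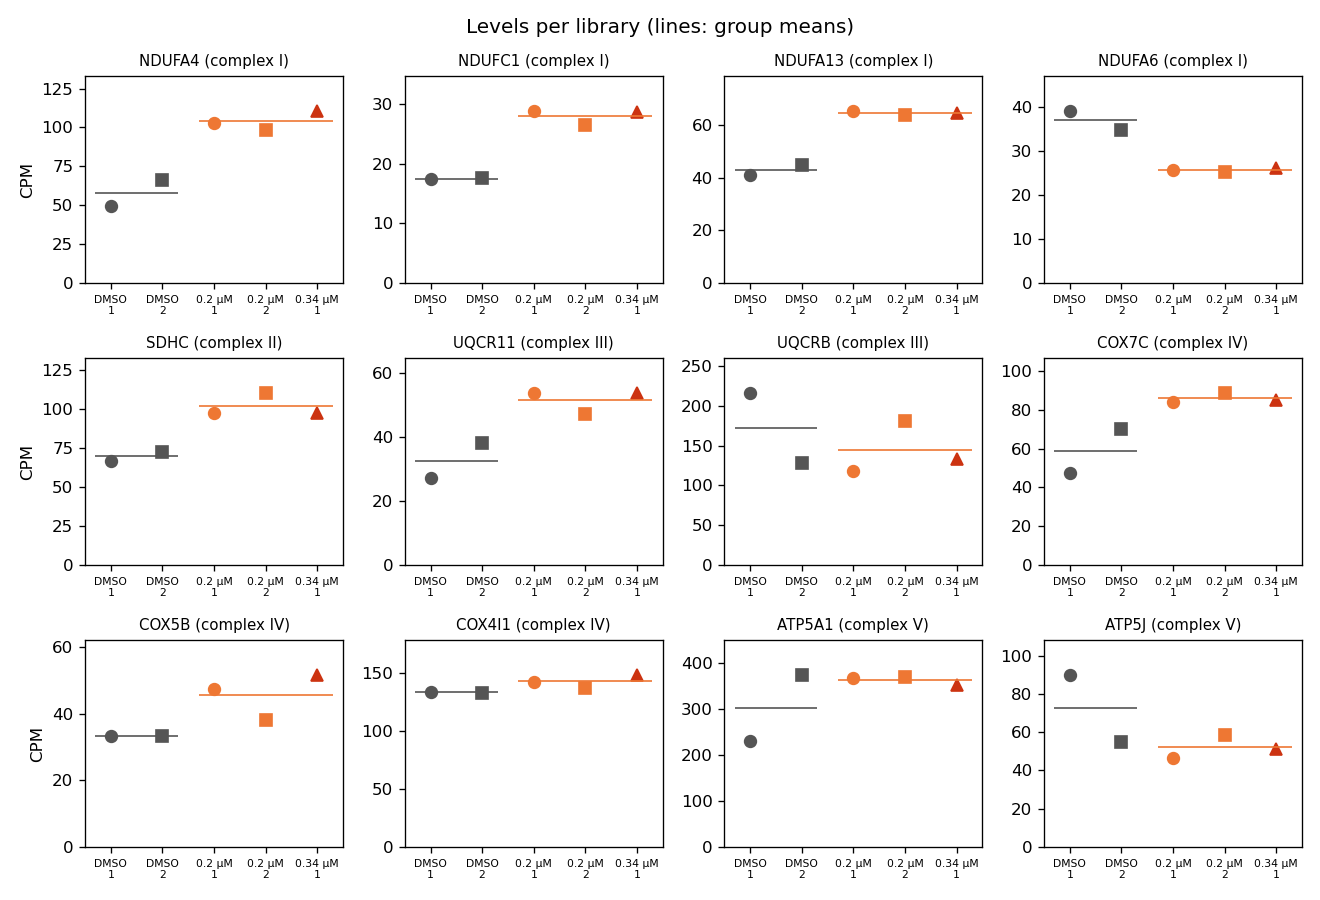
Levels in CPM (vertical axes, from 0) of 12 members in each of the 5 libraries (horizontal axes, treatment and replicate), with lines at the group means. The groups are apart for NDUFA4, NDUFC1, NDUFA13, SDHC, UQCR11, COX7C, COX5B and, downwards, NDUFA6, while for UQCRB, ATP5A1 and ATP5J a control lies among or beyond the treated libraries.

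Summed over genes, the respiratory chain came to 4398 and 5131 CPM in DMSO, 5384 and 5505 CPM at 0.2 μM and 5407 CPM at 0.34 μM, a ratio of the group means of 1.14. For complex IV the sums were 588 and 688 CPM in DMSO and 795, 791 and 826 CPM in doxorubicin (ratio 1.26). For complex II they were 257 and 309 CPM in DMSO and 329.7, 353 and 350.4 CPM in doxorubicin (ratio 1.22). Complex I had a ratio of 1.16 and complex III of 1.13, with the treated libraries above both controls. For complex V, at 1502 and 1856 CPM in DMSO and 1805, 1813 and 1737 CPM in doxorubicin, the groups overlapped (ratio 1.06). The sums are weighted towards the highly expressed genes and are given without a test.

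**Figure D4:**
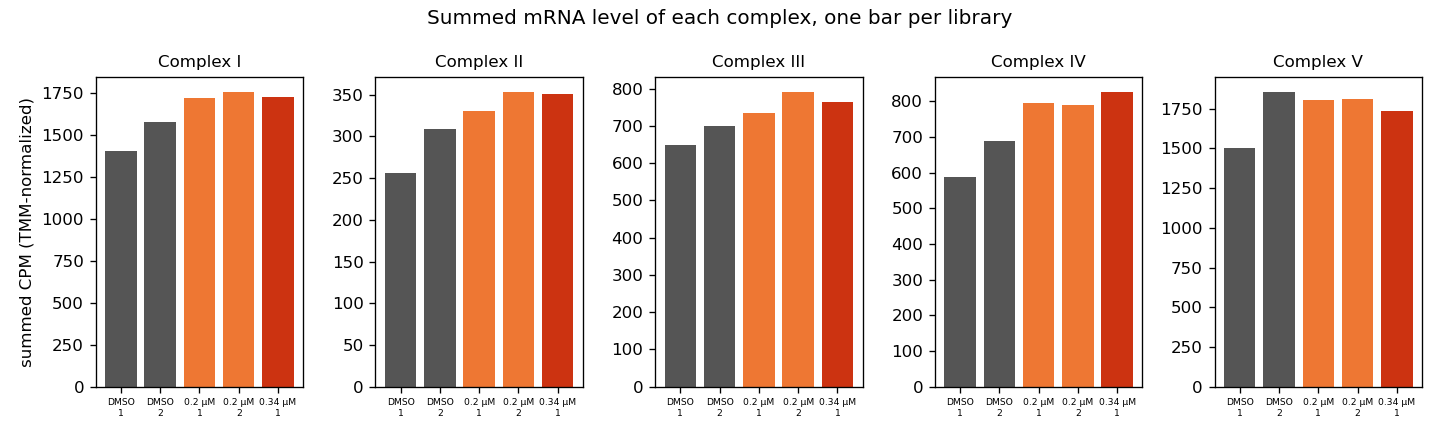
Summed CPM of the genes of each complex (vertical axes, from 0), with 1 bar for each library (grey, DMSO; orange, 0.2 μM; red, 0.34 μM doxorubicin). The treated bars stand above both DMSO bars for complexes I to IV, while for complex V the second DMSO bar, at 1856 CPM, is the highest.

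A difference between the doses could hardly be tested. The 0.34 μM arm is 1 library, and the spread comes from the DMSO and the 0.2 μM pairs, which lay far apart (chi-square per degree of freedom 117 and 75.3) beside 9.01 for the 0.34 μM library against the first 0.2 μM library. In a fit of 3 conditions, 0.34 μM against 0.2 μM gave 0 calls among 14745 genes (0%) in edgeR's quasi-likelihood test and 0 in DESeq2, and 27 genes had an unadjusted p under 0.05 in edgeR and 33 in DESeq2. None of those was a member. The median log2 difference of the members, 0.34 μM over 0.2 μM, was -0.003, with 39 of them higher and a range from -0.28 to 1.15. The single 0.34 μM library was taken to vary like the others, and these counts do not show that the doses act alike.

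Doxorubicin against DMSO also differed with transcript length, and respiratory chain transcripts are short. The median length was 804 bases for tested members and 3283 for all genes tested with a length (95.8% of them), and 57.0% of the members but 6.93% of all genes were under 1000 bases. Among non-members the median log2 fold change was 0.12 under 1000 bases, 0.09 from 1000 to 2000, 0.03 from 2000 to 4000 and -0.06 above that. Members had medians of 0.32, 0.24, 0.24 and 0.20 in the same bands, with 45, 16, 10 and 8 genes. They were thus higher than the other genes of their band in each, and lengths are those of 1 chosen transcript per gene. The part of length in the members' values was not tested.

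Other genes of the pathway were taken from lists. Among 16 tested regulators of mitochondrial biogenesis and mitochondrial DNA upkeep, 9 were higher and 7 lower (median log2 fold change 0.06), and 1 rose past the threshold and 0 fell by edgeR's quasi-likelihood test, where 4.02% of all genes passed. At an unadjusted p under 0.05 there were 5 of 16, where 30.8% of all genes passed, and by DESeq2 2 were higher and 2 lower, where 14.3% passed. This was RRM2B, a ribonucleotide reductase subunit that is known as a p53 target and supplies nucleotides for DNA repair and mitochondrial DNA. It was at 47.6 and 52.9 CPM in DMSO and at 147, 259 and 181 CPM in doxorubicin, a log2 fold change of 1.96 ± 0.27 with an adjusted p of 0.00654 by edgeR. The adjusted p from edgeR was above the threshold of 0.01 when either DMSO library, the second 0.2 μM library or the 0.34 μM library was left out (0.0394, 0.036, 0.0105 and 0.0162), at log2 fold changes between 1.71 and 2.02. NRF1, the factor whose motif is given above, was at 13.96 and 16.5 CPM in DMSO and at 6.65, 6.94 and 5.40 CPM in doxorubicin (-1.27 ± 0.21, adjusted p 0.013 by edgeR and 9.11e-06 by DESeq2). GABPB1, the beta subunit of GABP, was at 20.3 and 22.9 CPM in DMSO and at 10.9, 12.6 and 9.78 CPM in doxorubicin (-0.96 ± 0.19, adjusted p 0.022 by edgeR and 0.000304 by DESeq2). The alpha subunit GABPA had a log2 fold change of -0.29 ± 0.16. ESRRA, a nuclear receptor that drives such genes, was at 6.52 and 13.6 CPM in DMSO and at 23.97, 19.6 and 27.1 CPM in doxorubicin (1.23 ± 0.34, adjusted p 0.058 by edgeR and 0.00454 by DESeq2). Its log2 fold change came to 0.78 when DMSO replicate 1 was left out and to 1.84 when replicate 2 was. These regulators other than RRM2B were selected after their values were seen.

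The remaining lists stayed near the median of all genes. Of 50 assembly factors 29 were higher and 21 lower (median 0.06). The threshold was passed by 0 in edgeR (all genes 4.02%) and 1 in DESeq2 (14.3%), and 8 had an unadjusted p under 0.05 (30.8%). The one in DESeq2 was SURF1, an assembly factor of complex IV, at 9.04 and 12.9 CPM in DMSO and at 23.6, 27.8 and 26.1 CPM in doxorubicin (1.23 ± 0.22, adjusted p 0.0147 by edgeR and 1.55e-05 by DESeq2). Of 18 genes of the citrate cycle and pyruvate dehydrogenase 9 were higher and 9 lower (median 0.01). The threshold was passed by 0 in edgeR (all genes 4.02%), and 5 had an unadjusted p under 0.05 (30.8%). In DESeq2 1 passed (all genes 14.3%), citrate synthase CS (-0.53 ± 0.14, adjusted p 0.00865 by DESeq2). SURF1 and CS were selected after their values were seen. A list of 8 genes, of electron carriers with the ATP synthase inhibitor among them, had a median of -0.10. The 4 genes listed as subunits that the symbols leave out had a median of 0.02, with 1 of them at 3 to 20 counts. Both lists had 0 past the threshold in edgeR and DESeq2 and 0 at an unadjusted p under 0.05. The shares of all genes are those just given.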

How the data were processed

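RNA was measured in 5 libraries of RPE1 cells, grouped by the treatment labels. The table the authors deposited holds unnormalized read counts for each gene. Reads of stranded poly-A libraries had been aligned to hg38 with STAR and counted with featureCounts. Not given in the sources used here are versions, the strand setting and how multi-mapping reads were counted. Of the members, 48 have named pseudogenes (191 in all) and 35 overlap another gene, so that their counts could be shared. The authors' table of genes called by DESeq2, which holds their p-value (p-values), log2 fold changes, a mean signal and a test score as deposited, was not used. One description of the treatment gives 340 and 200 μM in place of the labels' 0.34 and 0.2 μM.

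Tests were run with edgeR 4.0.16 under R 4.3.3 (quasi-likelihood test, TMM normalization, minimum count of 10 and total of 15, no covariates), with DESeq2 1.42.0 and limma 3.58.1 as alternatives. The filter kept 14187 of 26485 genes and 80 of 88 members. ATP5EP2, ATP5L2, COX4I2, COX6A2, COX6B2, COX7A1, COX7B2 and COX8C were not tested. P-values were adjusted over all genes with a threshold of 0.01. Standard errors are the absolute log2 fold change over the root of the F statistic, and intervals are at 95%. The study's methods call the libraries of a group biological replicates. No pair was a copy (chi-square per degree of freedom 117 for DMSO, 75.3 for 0.2 μM and 9.01 for 0.34 μM against the first 0.2 μM library). The scripts were tested on simulated data. CPM values use TMM factors (0.975 to 1.04), and limits for a count of 0 cover counting error only.

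Genes named are members past the threshold, the highest and lowest of each complex, fixed core subunits and isoforms, and members of other lists past the threshold, with others marked as selected after their values were seen. Some items, 1 tested member among them, are not reported by name or drawn here. The symbol rule for members uses no measured value, but the rule and the lists were set with earlier results of these data known. Promoters come from RefSeq and transcript lengths from GENCODE. Symbols were matched to RefSeq by symbol (23755), by an older symbol (1571) or not at all (1159).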

Additional observations from a re-analysis of the deposited data

How the results depend on the processing

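At an adjusted p of 0.01 no edgeR or limma setting called a member. The count was 0 with limma voom, with DESeq2 size factors, without the filter and without any 1 library, and 3 with DESeq2 and 3 at an adjusted p of 0.05. All genes called were 571 as reported, 2024 with DESeq2, 1020 without the filter and 215, 49, 207, 183 and 178 without DMSO 1, DMSO 2, 0.2 μM 1, 0.2 μM 2 and the 0.34 μM library. Between 57 and 68 of 80 members were higher, and 66 of 85 without the filter. Without the filter the median log2 fold change was 0.263 for members and 0.154 for all genes. Over subunits only, with NDUFA4 in complex IV, the median log2 fold change was 0.246. For complexes I to V it was then 0.226, 0.23, 0.171, 0.422 and 0.178. Leaving out 1 library moved the median log2 fold change between 0.14 and 0.36 for all members, 0.20 and 0.35 for complex I, 0.075 and 0.41 for II, 0.099 and 0.44 for III, 0.21 and 0.44 for IV and 0.045 and 0.22 for V. The lowest value was that without DMSO replicate 1 for all members and complexes I, II, IV and V, and for complex III that without the second 0.2 μM library. The highest was that without DMSO replicate 2 throughout. The sign of 10 named genes turned. Leaving out 1 library, the log2 fold change ran from -0.056 to 0.643 for ATP5A1, -0.269 to 0.266 for ATP5B, -0.058 to 0.496 for ATP5G1, -0.182 to 0.046 for ATP5G2, -0.363 to 0.44 for CYC1, -0.237 to 0.176 for NDUFS1, -0.165 to 1.017 for NDUFS3, -0.137 to 0.359 for SDHD, -0.607 to 0.165 for UQCRB and -0.288 to 0.377 for UQCRFS1, in each case with both ends set by leaving out a DMSO library. It also turned with limma voom for ATP5B (0.010) and CYC1 (0.049) and with the replicate block for ATP5B (0.030), CYC1 (0.021) and NDUFS1 (0.073). The cause was not tested. Over 40 named genes, 364 of 400 alternative values kept direction and side of the threshold, 12 passed it newly, 4 no longer did (RRM2B) and 20 turned sign. 0.34 μM against 0.2 μM gave 0 calls in every setting run.

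The labels give no replicate numbers tied to a shared day, and the 2 pairs are too few to settle whether replicates were paired. Differences of replicate 1 from 2 in DMSO and 0.2 μM correlated at 0.53 across all genes and -0.29 across members. With the replicate number as a block, and without the 0.34 μM library, 1249 genes and 0 members were called, and 67 of 80 members were higher. The same libraries without the block gave 178 genes and 0 members called, with 64 of 80 members higher. The main test has no block, so its calls and intervals take no account of a shared replicate difference.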
